A study of Homo sapiens with 6 samples.

Results

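Base excision repair removes single damaged or wrong bases from DNA and refills the gap. A DNA glycosylase cuts the damaged base from the sugar, an endonuclease nicks the strand at the abasic site that is left, and scaffold and signalling proteins gather the polymerase and ligase that close the gap. The 10 genes described here are 7 glycosylases (*UNG*, *OGG1*, *MUTYH*, *NTHL1*, *NEIL1*, *NEIL2* and *NEIL3*), the abasic site endonuclease *APEX1*, the scaffold *XRCC1* and the strand break sensor *PARP1*. They form a list of named genes, chosen with earlier results of these data known, and are 10 of the 60480 gene identifiers counted in OE-19 cells. All 10 passed the filter on low counts and are among the 19778 genes tested.

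OE-19 is an established human cell line from an adenocarcinoma of the esophagogastric junction (AEG). RNA-seq of poly(A) RNA was done on 3 control libraries (shControl) and 3 libraries of cells in which IGF2BP3, an RNA-binding protein and m6A reader, was knocked down by shRNA (IGF2BP3 KD). Both groups were grown in RPMI1640 medium with serum and antibiotics, and the control libraries are also described as Puro, a word that the labels do not explain. Whether the 3 IGF2BP3 KD libraries carry the same shRNA, and whether the libraries of a group come from separate cultures, is not stated in the sources used here. The p-values therefore measure the spread between these libraries, which may be technical.

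Total counts per library were 58966114 to 69989087 in control cells and 53424071 to 63008137 in IGF2BP3 KD cells. Values per gene are CPM, counts scaled for library size with edgeR's TMM method, and all log2 fold changes are IGF2BP3 KD minus control. Genes with an adjusted p under 0.05 over all 19778 tested genes are called lower or higher. *IGF2BP3* itself, the target, went from 108 ± 2.92 to 13.3 ± 0.996 CPM (SD, n = 3 each), and each library followed its label. Epithelial markers (*EPCAM*, *KRT8*, *KRT18*, *KRT19* and *CDH1*) summed to 5593 to 5745 CPM in all 6 libraries. Of 6 markers of other cell types, *CD3E* and *COL1A2* had 0 counts in every library, and *PTPRC* and *PECAM1* had at most 8. *CD68* and *COL1A1* were detected, and the 6 summed to 53.9 to 60.7 CPM in control and 82.1 to 83.3 CPM in IGF2BP3 KD cells. Their part in the results below was not tested. As these are bulk libraries, fewer cells with a transcript and less transcript per cell cannot be told apart.

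Of the 10 enzymes, 3 were called lower in IGF2BP3 KD cells, namely *UNG*, *PARP1* and *APEX1*. None was called higher with edgeR or DESeq2, and none rose at an unadjusted p under 0.05 with edgeR. Among all tested genes, 10.6% were called lower and 9.87% were called higher. The other 7 enzymes were not called in either direction. The median log2 fold change was -0.05 over the 10 enzymes and 0.01 over all tested genes. The values of both groups did not overlap for 6 enzymes. *UNG*, *APEX1*, *XRCC1* and *PARP1* were lower in each IGF2BP3 KD library than in each control library, against 17.8% of all tested genes. *OGG1* and *NEIL2* were higher in each, against 18.0% of all tested genes.

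**Figure D1:**
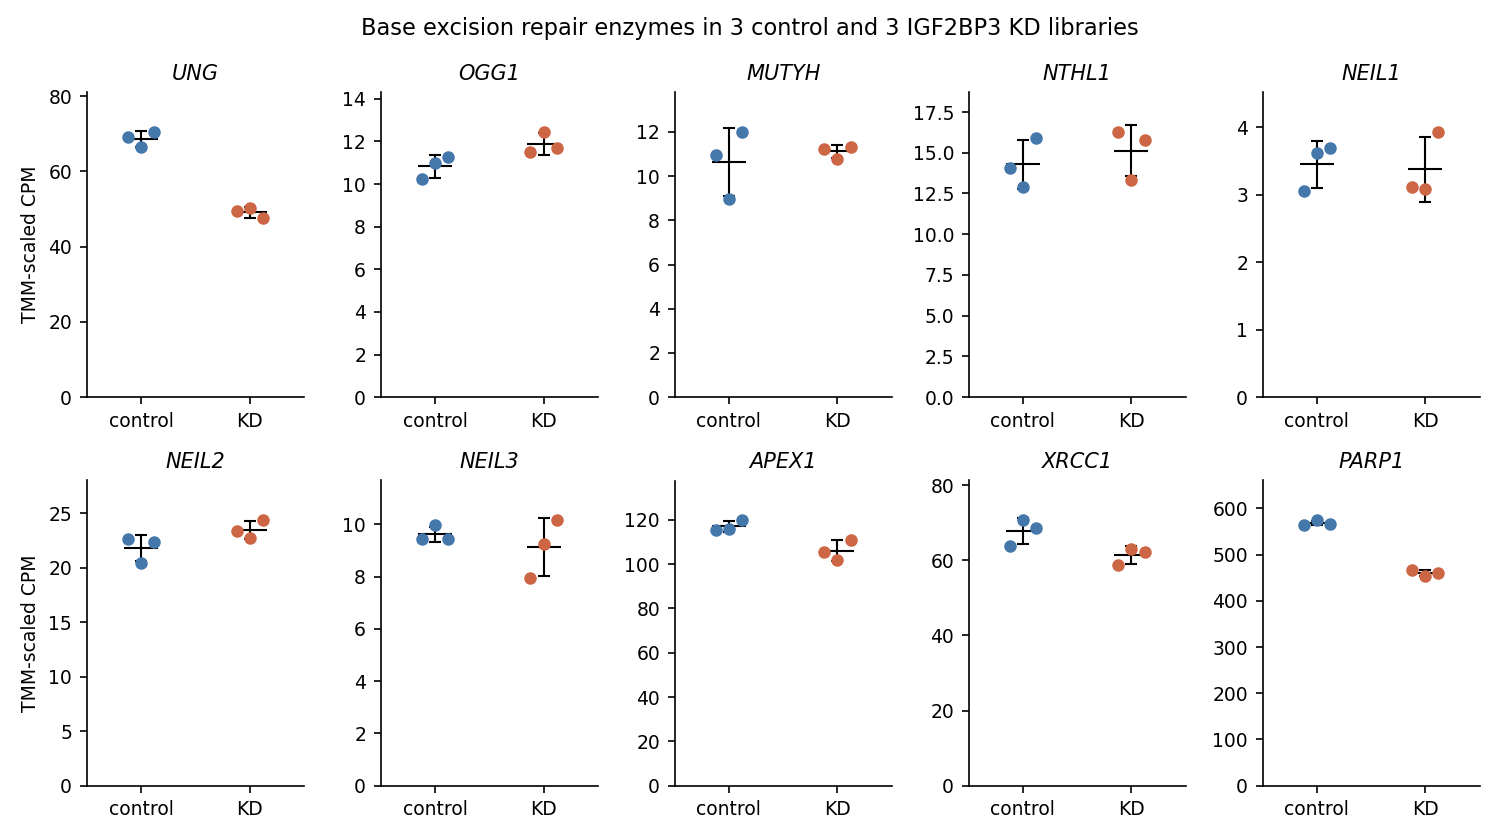
TMM-scaled CPM (y axes, from 0, a scale of its own in each panel) of the 10 base excision repair enzymes in 3 control and 3 IGF2BP3 KD libraries; points are libraries, long lines are means and error bars are SDs. The IGF2BP3 KD points of *UNG* and *PARP1* lie well below the control points, where the means fell by 28.5% and 19.0%, while the points of *NEIL1* and *NEIL3* are mixed.

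*UNG* (ENSG00000076248, chr12:109097597-109126725, plus strand, hg38) encodes uracil-DNA glycosylase, which removes uracil that was built into DNA during replication or made from cytosine by deamination. The gene has a pair of promoters. Transcripts from the upstream start encode the nuclear form UNG2 and those from the second start the mitochondrial form UNG1, and counts per gene cannot separate them. The promoter sequences of both starts, from 250 bases before to 50 bases after the start, were taken from RefSeq on GRCh38.p14. They are shown here because *UNG* changed most among the 10 enzymes and because its second promoter was the only one among those of the enzymes that held a searched E2F word. Each line below gives a 30-base window on the plus strand with the match in capitals. The first window is from the upstream promoter (chr12:109097347-109097646), and the other windows are from the second promoter (chr12:109097922-109098221).
UNG, CCAAT, chr12:109097583-109097612: ggccgcttggcgCCAATtgctgaccgccac
UNG, CCAAT, chr12:109097984-109098013: ctaaagggccagCCAATgggaacgcgtctc
UNG, CCAAT, chr12:109098015-109098044: gggcccatggcgCCAATccgcgcgccgcag
UNG, CCAAT, chr12:109098056-109098085: tcggtgcgctgtCCAATcagaggggagagg
UNG, E2F word, chr12:109098098-109098127: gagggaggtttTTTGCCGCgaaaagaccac

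The letters searched, on both strands, were CCAAT (the NF-Y box), GGGCGG (a GC box), TTTGAA (the core of the CHR element) and 4 E2F words, TTTGGCGC, TTTCCCGC, TTTGCCGC and TTTCGCGC, counted together. Matches of different words may share bases. RefSeq gave 14 promoters for 9 of the enzymes, and no entry for *NEIL2*. CCAAT was present in 9 of these 14 promoters and in 34.6% of all 35116 promoters in the table. The 35116 promoters were not limited to tested genes, and shares among tested genes were not computed. GGGCGG was present in 11 of the 14 and in 45.0% of all promoters, and TTTGAA in 4 of the 14 and in 15.2% of all. An E2F word was present in 1 of the 14, the second *UNG* promoter, and in 3.31% of all. Of the other enzymes that were lower, *APEX1* held CCAAT once and *PARP1* held GGGCGG but neither CCAAT nor an E2F word. CCAAT was also present in promoters of *OGG1*, *MUTYH*, *NEIL1*, *NEIL3* and *XRCC1*, and GGGCGG in promoters of these and of *NTHL1*. None of these enzymes was called. These matches describe the letters in the windows and do not show binding.

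In control cells, replicates 1 to 3 gave 4736, 4622 and 4129 counts of *UNG*, and in IGF2BP3 KD cells they gave 2667, 3119 and 2996. Scaled for library size these are 69.1, 66.3 and 70.5 CPM in control cells and 49.4, 50.2 and 47.5 CPM in IGF2BP3 KD cells. The lowest control library thus lay above the highest IGF2BP3 KD library. The mean fell by 28.5%, from 68.7 ± 2.12 to 49.1 ± 1.39 CPM (SD, n = 3). This is a log2 fold change of -0.48 (SE 0.05, 95% interval -0.59 to -0.38, edgeR's adjusted p = 3.69e-05). *UNG* stood at rank 345 of the 19778 genes by p. It was called lower in all 6 fits that left out 1 library each, with log2 fold changes from -0.51 to -0.47. In GENCODE v44 no exon of another gene overlaps *UNG*. If the same holds in the annotation used for counting, which is not stated, its counts do not depend on how reads of overlapping genes were assigned.

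The other 6 glycosylases were not called in either direction. *OGG1*, *MUTYH* and *NTHL1* act on oxidized bases. OGG1 removes 8-oxoguanine paired with cytosine, MUTYH removes adenine paired with 8-oxoguanine, and NTHL1 removes oxidized pyrimidines. *OGG1* (ENSG00000114026, chr3:9749944-9788219, plus strand) had 10.2, 11.0 and 11.3 CPM in control cells and 11.5, 12.5 and 11.7 CPM in IGF2BP3 KD cells. Its groups did not overlap, but the gap was small beside the spread. The log2 fold change of *OGG1* was 0.13 (SE 0.09, 95% interval -0.06 to 0.33, edgeR's adjusted p = 0.355).

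*MUTYH* (ENSG00000132781, chr1:45329163-45340893, minus strand) had 10.97, 8.97 and 12.003 CPM in control cells and 11.2, 10.8 and 11.3 CPM in IGF2BP3 KD cells. All IGF2BP3 KD values lay inside the control range, which reached from a low replicate 2 to a high replicate 3. *MUTYH* had a log2 fold change of 0.06 (SE 0.11, 95% interval -0.18 to 0.31), with -0.05 without control replicate 2. *NTHL1* (ENSG00000065057, chr16:2039815-2047866, minus strand) had 14.0, 12.9 and 15.9 CPM in control cells and 16.3, 13.3 and 15.8 CPM in IGF2BP3 KD cells. The groups overlapped, and the log2 fold change of *NTHL1* was 0.08 (SE 0.10, 95% interval -0.15 to 0.31).

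The NEIL enzymes are related to bacterial endonuclease VIII and remove oxidized pyrimidines and ring-opened purines. NEIL1 and NEIL2 act on duplex and bubble DNA, and NEIL3 prefers single-stranded DNA, also opens interstrand crosslinks, and is known from dividing cells. *NEIL1* (ENSG00000140398, chr15:75346955-75357115, plus strand) was the lowest of the 10, with 209, 252 and 216 counts in control cells and 168, 192 and 248 counts in IGF2BP3 KD cells. These are 3.05, 3.62 and 3.69 CPM against 3.11, 3.09 and 3.93 CPM. The groups of *NEIL1* were interleaved, with a log2 fold change of -0.03 (SE 0.18) and a 95% interval from -0.42 to 0.36 that was the widest among the 10. This interval still contains a change as large as that of *PARP1*.

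*NEIL2* (ENSG00000154328, chr8:11769639-11787345, plus strand) had 22.6, 20.4 and 22.4 CPM in control cells and 23.4, 22.8 and 24.4 CPM in IGF2BP3 KD cells. The groups did not overlap, by a margin of less than 1 CPM, and the log2 fold change of *NEIL2* was 0.11 (SE 0.07, 95% interval -0.04 to 0.26, edgeR's adjusted p = 0.324). *NEIL3* (ENSG00000109674, chr4:177309874-177362936, plus strand) had 9.45, 9.96 and 9.42 CPM in control cells and 7.95, 9.26 and 10.2 CPM in IGF2BP3 KD cells. IGF2BP3 KD replicate 1 was lowest and replicate 3 highest of the 6 libraries. For *NEIL3* the log2 fold change was -0.07 (SE 0.11, 95% interval -0.32 to 0.17), and it was 0.01 without IGF2BP3 KD replicate 1.

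*APEX1* (ENSG00000100823, chr14:20455191-20457772, plus strand) encodes the main endonuclease at abasic sites, which also acts on transcription factors as a redox factor. It had 115.5, 116 and 120 CPM in control cells and 106, 102 and 111 CPM in IGF2BP3 KD cells. All 3 IGF2BP3 KD values lay below the control values. The mean fell by 9.35%, from 117 ± 2.37 to 106 ± 4.61 CPM (SD, n = 3), and the log2 fold change was -0.14 (SE 0.04, 95% interval -0.23 to -0.05, edgeR's adjusted p = 0.0285). This call was less stable than those of *UNG* and *PARP1*. It was lost without control replicate 2 or 3 or without IGF2BP3 KD replicate 1 or 2, with edgeR's adjusted p from 0.0635 to 0.127, and also without the filter on low counts (edgeR's adjusted p = 0.0526). Its log2 fold change lay between -0.18 and -0.11 in the 6 fits without 1 library.

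*XRCC1* (ENSG00000073050, chr19:43543311-43580473, minus strand) encodes the scaffold that binds DNA ligase III and polymerase beta at single-strand breaks. It had 63.9, 70.6 and 68.7 CPM in control cells and 58.6, 63.0 and 62.3 CPM in IGF2BP3 KD cells. The groups were close but did not overlap, with control replicate 1 just above IGF2BP3 KD replicate 2. The mean went from 67.7 ± 3.46 to 61.3 ± 2.34 CPM (SD, n = 3). For *XRCC1* the log2 fold change was -0.14 (SE 0.05, 95% interval -0.26 to -0.03), and edgeR's adjusted p of 0.0795 missed the threshold. The size of its difference was thus like that of *APEX1*, while its SE was larger (0.05 against 0.04). *XRCC1* passed the threshold without control replicate 1 (log2 fold change -0.19, edgeR's adjusted p = 0.0277) and with DESeq2 (log2 fold change -0.15, DESeq2's adjusted p = 0.0307), among other alternatives.

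*PARP1* (ENSG00000143799, chr1:226360210-226408154, minus strand) encodes the enzyme that binds DNA breaks and adds poly(ADP-ribose) to itself and to nearby proteins, which draws XRCC1 to the break. It had 38661, 39996 and 33204 counts in control cells and 25195, 28215 and 28986 counts in IGF2BP3 KD cells. These are 564, 574 and 567 CPM against 467, 454 and 459.9 CPM. The 3 values of each group lay close together, and a wide gap separated the groups. The mean fell by 19.0%, from 568.5 ± 5.02 to 460.4 ± 6.19 CPM (SD, n = 3). On the log2 scale the fold change was -0.30 (SE 0.02, 95% interval -0.36 to -0.25, edgeR's adjusted p = 6.05e-06). *PARP1* stood at rank 173 of the 19778 genes by p, above *UNG*, although its log2 fold change was smaller in size. It was called lower in all 6 fits that left out 1 library each, with log2 fold changes from -0.32 to -0.30.

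**Figure D2:**
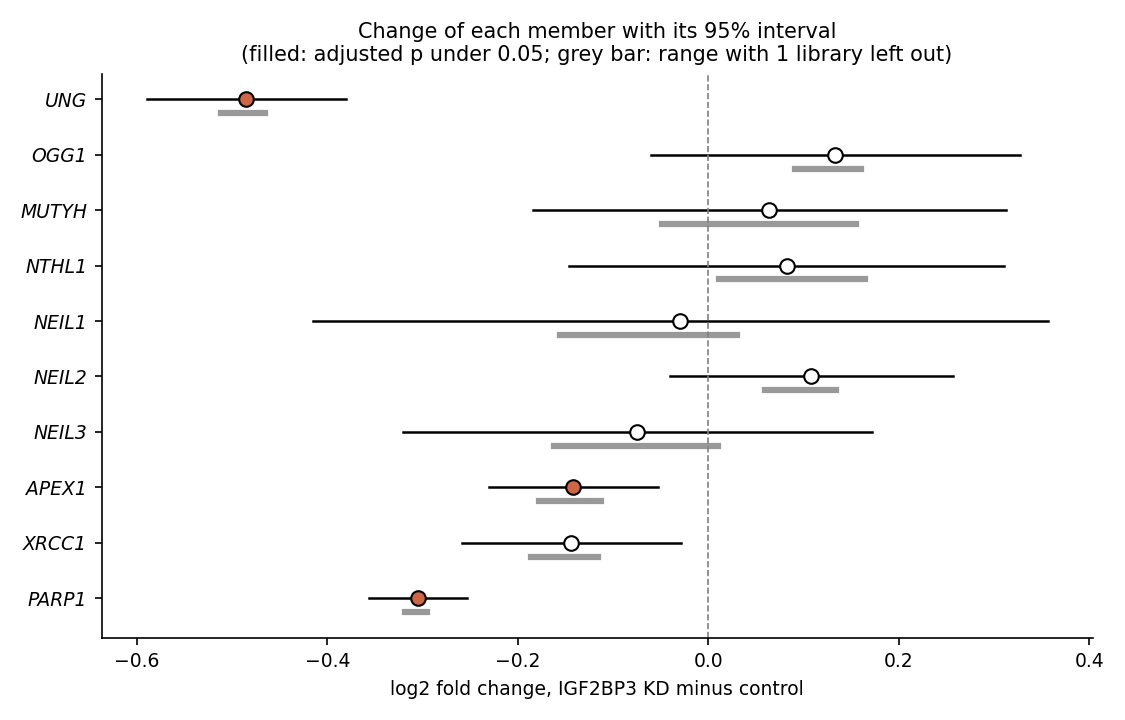
Log2 fold change of each of the 10 enzymes, IGF2BP3 KD minus control (x axis), as points with 95% intervals from edgeR; filled points have an adjusted p under 0.05 over all tested genes, and grey bars span the fits without 1 library. *UNG* (-0.48) and *PARP1* (-0.30) lie farthest from 0, and the grey bars of *MUTYH*, *NEIL1* and *NEIL3* cross 0.

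The counting setting for strands is not stated, so counts in shared exons of overlapping genes are uncertain. In GENCODE v44, *UNG*, *NTHL1*, *NEIL2*, *NEIL3* and *PARP1* share no exonic base with another gene. *OGG1* shares 2175 exonic bases with *CAMK1* and 356 with *TADA3*, both on the opposite strand. *CAMK1* was low, at 0.825 and 1.22 CPM, and was not called, and *TADA3* had a log2 fold change of -0.07. *NEIL1* shares 1832 exonic bases with *MAN2C1* on the opposite strand, which was more abundant, at 36.7 CPM in control and 37.5 CPM in IGF2BP3 KD cells. *MUTYH* shares 491 bases with *TOE1* on the opposite strand and 1838 with the gene ENSG00000288208 on its own strand, and neither was called. Counts in bases shared on the same strand are uncertain under any strand setting. *APEX1* shares 92 bases with *PIP4P1* on the opposite strand, which had a log2 fold change of -0.16 without a call. *XRCC1* overlaps *L34079.4*, at 0.154 and 0.183 CPM, and 2 genes too low to test, and *NEIL1* also overlaps 2 such genes. None of the overlapping genes that were tested was called.

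Levels were compared between the enzymes as CPM per kilobase of the canonical transcript. In control cells *PARP1* was highest with 142.9 ± 1.26 CPM per kilobase (SD, n = 3), followed by *APEX1* with 80.6 ± 1.63. *UNG* and *XRCC1* came next with 33.5 ± 1.03 and 33.0 ± 1.69 CPM per kilobase, and their control ranges overlapped. *NTHL1* had a level of 13.9 ± 1.47 CPM per kilobase and *NEIL2* one of 8.08 ± 0.451. *OGG1* and *MUTYH*, with levels of 6.65 ± 0.333 and 6.23 ± 0.902 CPM per kilobase, also overlapped in their control ranges. *NEIL3* had 4.07 ± 0.129 and *NEIL1* 0.93 ± 0.094 CPM per kilobase, and *PARP1* was 154-fold above *NEIL1*. In IGF2BP3 KD cells *UNG* fell to 24.0 ± 0.677 CPM per kilobase, and *XRCC1* with 29.9 ± 1.14 lay above it in every library. The levels of *OGG1*, *MUTYH* and *NEIL1*, and ratios or shares computed from them, are uncertain because of the shared exons given above. The order depends on the length used. With the union of all exons of each gene in place of the canonical transcript, *APEX1* was first with 62.1 and *PARP1* second with 30.9 CPM per kilobase, 62.1-fold above *NEIL1*. By that length *XRCC1*, with 24.7 CPM per kilobase, was already above *UNG*, with 13.03, in control cells.

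**Figure D3:**
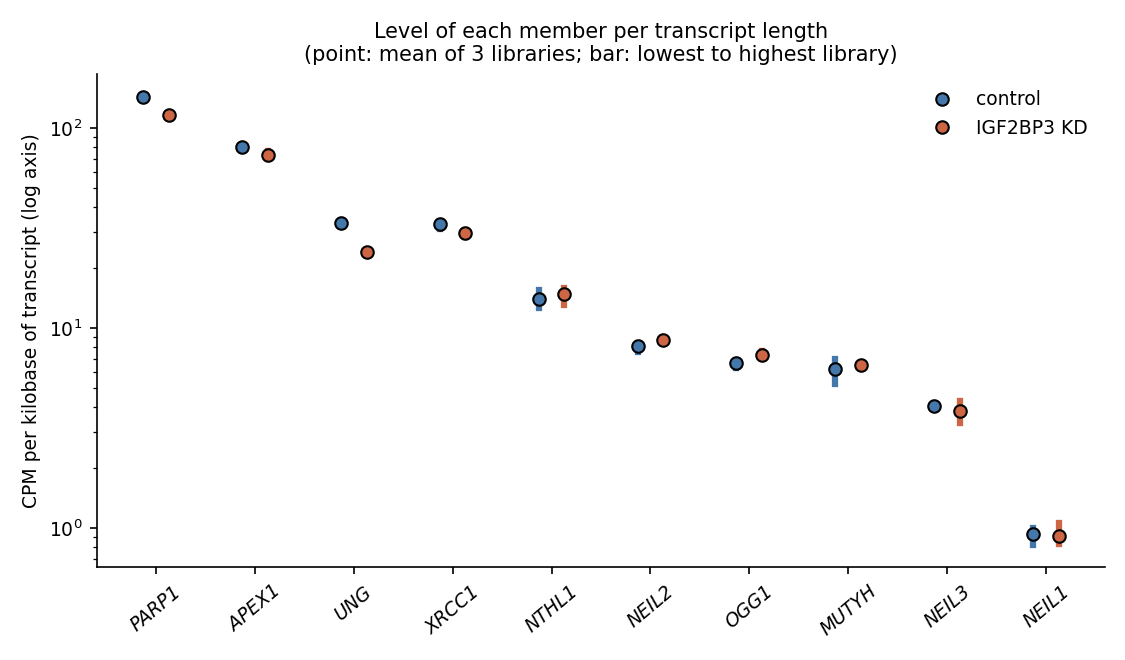
Level of each enzyme in CPM per kilobase of canonical transcript (y axis, logarithmic) in control and IGF2BP3 KD cells; points are means of 3 libraries and bars run from the lowest to the highest library. The 10 levels span from 0.93 CPM per kilobase for *NEIL1* to 142.9 for *PARP1* in control cells, and *XRCC1* lies above *UNG* in IGF2BP3 KD cells, while their control ranges overlap.

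*UNG* is 1 of several enzymes that open base excision repair, so its level was set beside that of all 11 human DNA glycosylases, the 7 above and *SMUG1*, *TDG*, *MBD4* and *MPG*. Their summed level was 140.3 ± 5.44 CPM per kilobase in control and 133.3 ± 0.623 CPM per kilobase in IGF2BP3 KD cells (SD, n = 3). *UNG* made up 23.9 ± 0.489% of this sum in control and 18.0 ± 0.425% in IGF2BP3 KD cells. Its share fell by 5.93 percentage points, with no overlap between the groups. By this measure it was the most abundant glycosylase transcript in control cells. In IGF2BP3 KD cells *MPG* had the highest mean share, 18.6 ± 0.392%, close to those of *UNG* and of *MBD4*, at 17.4 ± 0.963%. That order depends on transcript length. Without scaling for length, *MBD4* had 55.5, *UNG* 49.1 and *MPG* 25.7 CPM in IGF2BP3 KD cells. The share of *TDG* went from 10.5 ± 0.412% to 8.72 ± 0.351%. The share of *SMUG1*, which encodes another glycosylase for uracil, went from 4.58 ± 0.196% to 5.83 ± 0.295%. Shares add up to a whole, so a lower share of one enzyme raises those of the others, and these values are given without a test. The ratio of the *UNG* level to the *SMUG1* level was 5.17, 5.03 and 5.47 in the control libraries and 2.98, 3.33 and 2.97 in the IGF2BP3 KD libraries. All 3 IGF2BP3 KD ratios were below all 3 control ratios. This follows from the values of both genes and is no further result. *UNG* was lower, and *SMUG1* higher, in each IGF2BP3 KD library than in each control library.

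**Figure D4:**
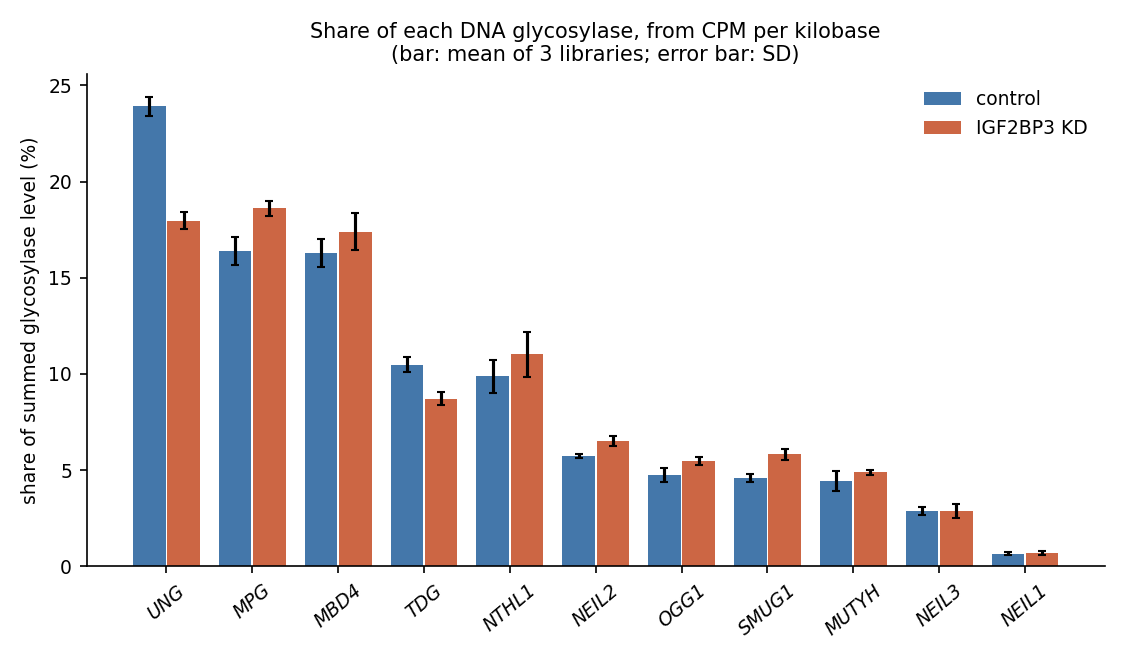
Share of each of 11 DNA glycosylases in their summed level, in percent (y axis, from 0), computed from CPM per kilobase; bars are means of 3 control and 3 IGF2BP3 KD libraries and error bars are SDs. The share of *UNG* was 23.9% in control and 18.0% in IGF2BP3 KD cells, and that of *TDG* was also lower, while *SMUG1* and *MPG* had higher shares.

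The enzymes were then read beside 39 other genes of base excision repair in 5 roles, all of which were tested. Of these, 17 were called lower and 1 higher in IGF2BP3 KD cells, and 21 were not called, with a median log2 fold change of -0.15. Of all tested genes, 10.6% were called lower and 9.87% higher. Among the other DNA glycosylases, 1 of 4 was called lower and 1 higher. *TDG*, which removes thymine from mismatches with guanine and oxidized forms of methylcytosine, had 50.49, 43.7 and 46.5 CPM in control cells and 35.3, 37.9 and 37.7 CPM in IGF2BP3 KD cells. All IGF2BP3 KD values of *TDG* lay below the control values, and its log2 fold change was -0.34 (SE 0.06, edgeR's adjusted p = 0.00282). *SMUG1* had 17.5, 17.3 and 16.9 CPM in control cells and 21.7, 19.7 and 21.0 CPM in IGF2BP3 KD cells. It was the only gene of the 39 called higher, with a log2 fold change of 0.27 (SE 0.07, edgeR's adjusted p = 0.0152). The call of *SMUG1* was lost without control replicate 3, IGF2BP3 KD replicate 1 or IGF2BP3 KD replicate 3, with edgeR's adjusted p from 0.0538 to 0.0645.

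*POLB* and *LIG3*, which act in short-patch repair, were not called. *POLB*, the gap-filling polymerase, had a log2 fold change of -0.01 (95% interval -0.16 to 0.15), and *LIG3*, the ligase that XRCC1 binds, -0.09 (95% interval -0.23 to 0.04). Both intervals lie above the log2 fold change of *PARP1*. This does not hold for all genes of end processing and short-patch repair. The intervals of *APEX2* (-0.20, 95% interval -0.43 to 0.04) and *APTX* (-0.18, 95% interval -0.35 to -0.01) contain that of *PARP1*. *POLL* had -0.06, *APLF* 0.04 and *TDP1* 0.07, and none of these genes was called. Among 6 genes of ADP-ribosylation, only *PARP2* was called lower and none was called higher, against 10.6% and 9.87% of all tested genes. *PARP2* had 62.8, 56.8 and 59.8 CPM in control cells and 49.7, 45.1 and 50.5 CPM in IGF2BP3 KD cells. Its log2 fold change was -0.30 (SE 0.06, edgeR's adjusted p = 0.00382). *PARP2* encodes the closest relative of *PARP1*, and both had the same log2 fold change to 2 decimals. *PARG*, which removes the polymer, had 0.01, and *HPF1*, which directs PARP1 to serine residues, had -0.13. *PARP3* had 0.27 (SE 0.12, edgeR's adjusted p = 0.148), and none of them was called.

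The long-patch branch replaces several bases and shares its machinery with DNA replication. Of its 16 genes, 12 were called lower and none higher, against 10.6% and 9.87% of all tested genes, with a median log2 fold change of -0.29. The clamp loader subunit *RFC4* had 50.02, 45.8 and 47.7 CPM in control cells and 31.9, 32.3 and 30.3 CPM in IGF2BP3 KD cells. It had the lowest log2 fold change of the 39 genes, -0.60 (SE 0.06, edgeR's adjusted p = 2.64e-05). The flap endonuclease *FEN1* had 71.1, 72.6 and 71.0 CPM in control cells and 45.9, 48.1 and 50.3 CPM in IGF2BP3 KD cells. Its log2 fold change was -0.57 (SE 0.05, edgeR's adjusted p = 1.28e-05), beside -0.48 for *UNG*. The polymerase epsilon subunit *POLE2* went from 9.17 ± 0.640 to 6.52 ± 0.809 CPM, with a log2 fold change of -0.49 (SE 0.13). The call of *POLE2* was lost without control replicate 2 or 3 or IGF2BP3 KD replicate 3, that of *RFC1* in 4 and that of *RFC5* in 5 of the 6 fits without 1 library. Without control replicate 2, all 3 of these calls were lost, and with GC offsets those of *RFC1* and *RFC5* were. *POLE3*, *POLE4*, *POLD2* and *POLD4*, which encode small subunits of the replicative polymerases, were not called. *POLE4* passed the threshold with DESeq2, with at least 10 counts in every library, with coding genes only and without control replicate 1, with adjusted p from 0.0451 to 0.0489.

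Among the genes that clean the nucleotide pool is *DUT*. It encodes the enzyme that breaks down dUTP and so keeps uracil, the substrate of UNG, out of DNA. *DUT* fell from 98.5 ± 0.757 to 88.8 ± 4.35 CPM. Its log2 fold change was -0.15 (SE 0.04, edgeR's adjusted p = 0.0297), and the call was lost with GC offsets and in 4 of the 6 fits without 1 library.

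**Figure D5:**
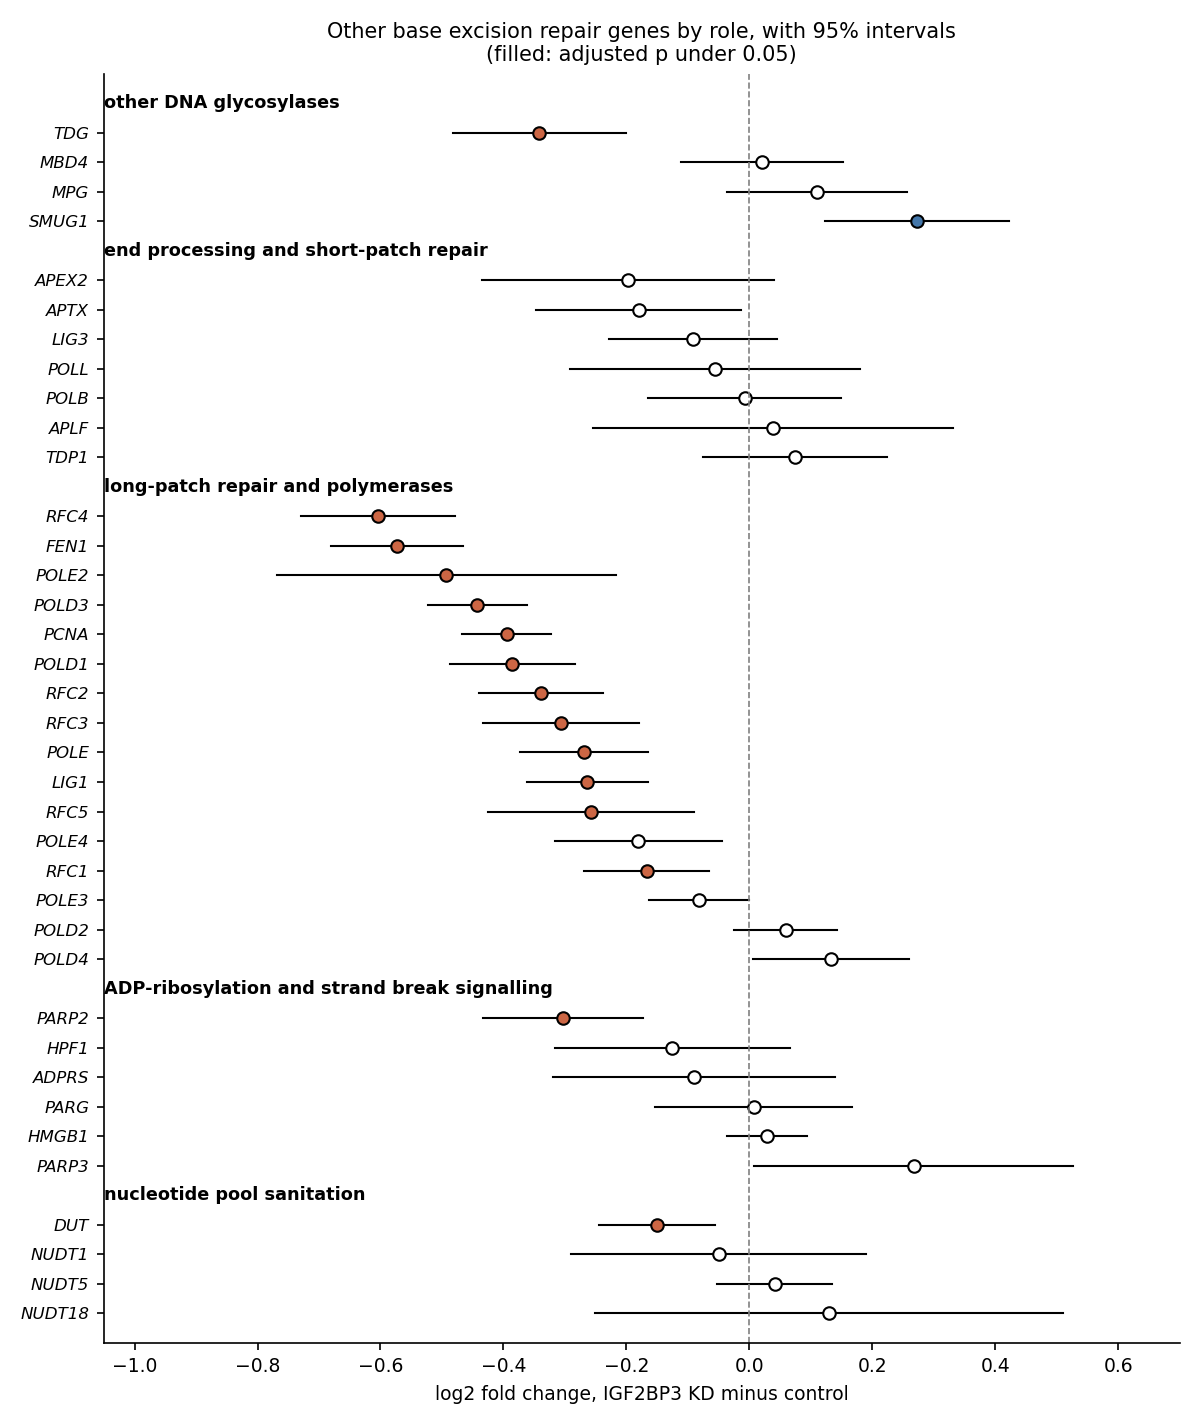
Log2 fold change, IGF2BP3 KD minus control (x axis), of 37 of the 39 other base excision repair genes in 5 roles, as points with 95% intervals from edgeR; filled points have an adjusted p under 0.05 over all tested genes. In the long-patch role 12 of 16 points are filled, from -0.60 for *RFC4* to -0.17 for *RFC1*, while *SMUG1* is the filled point above 0.

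Several of these genes are also known as genes of S phase, so the list of S-phase genes shipped with Seurat was set beside them, a choice made after their values were seen. Of the 10 enzymes, *UNG* is on that list, and of the 39 other genes *FEN1*, *PCNA*, *POLD3* and *RFC2* are. All 5 were called lower. Of the 38 S-phase genes outside both lists, 31 were called lower and 1 was called higher, against 10.6% and 9.87% of all tested genes, and their median was -0.35 on the log2 scale. The 44 base excision repair genes off the S-phase list included 15 called lower (34.1%) and 1 called higher, and their median was -0.09. *PARP1* and *APEX1* are among these 44. The 44 also hold long-patch genes of the replication machinery. Of these, *LIG1*, *POLD1*, *POLE*, *POLE2*, *RFC1*, *RFC3*, *RFC4* and *RFC5* were called lower, and *POLD2*, *POLD4*, *POLE3* and *POLE4* were not called. The part of the other S-phase genes' change in that of *UNG* was not tested.

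As IGF2BP3 binds RNA, the canonical transcripts were searched for 3 words, a description with no test. GATTACT and ACACATC are words of 7 bases that an earlier look at these data had tied to lower and higher genes, and TGGAC holds GGAC, the core of the m6A motif. In 13916 tested coding genes with a 3′ UTR, GATTACT was present in 7.70% of 3′ UTRs, ACACATC in 9.54% and TGGAC in 61.4%. No 3′ UTR of the 10 enzymes held GATTACT or ACACATC, and 1 held TGGAC, that of *OGG1*. These 3′ UTRs are from 64 bases (*MUTYH*) to 2081 bases (*NEIL1*) long. Those of *UNG* and *PARP1*, with 1023 and 769 bases, held none of the 3 words. Outside the 3′ UTR, all 10 transcripts held TGGAC at least once, as did 94.0% of the transcripts of all these genes anywhere in their length. *APEX1* alone among the 10 held GATTACT, at base 1084 of its 1453-base transcript, in the coding sequence of exon 5 of 5. The window below, on the plus strand of hg38, shows it in capitals, and the CCAAT of the *APEX1* promoter follows for comparison with those of *UNG*.
APEX1, GATTACT, chr14:20457387-20457416: gttggcgccttGATTACTttttgttgtccc
APEX1, CCAAT, chr14:20455127-20455156: gtgtcagacagaCCAATcacgcgcattctt

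Of the 3′ UTRs of the 39 other genes, 1 held GATTACT (*FEN1*), 2 held ACACATC (*SMUG1* and *PARP3*) and 20 held TGGAC. In all 13916 coding genes the shares were 7.70%, 9.54% and 61.4%. *FEN1* was called lower and *SMUG1* higher, and *PARP3* had a log2 fold change of 0.27 without a call. GATTACT and ACACATC were taken from an earlier look at these same data, so these directions are not a test of them.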

How the data were processed

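RNA-seq was done on 6 libraries of OE-19 cells, 3 per group. The authors aligned paired reads of 150 bases to hg38 with HISAT2, counted them per gene with featureCounts and deposited the raw counts. The submitters' processing notes also name fastp. Versions, annotation release and strand setting are not given in the sources used here. Of 60612 entries, 132 repeated entries of 44 identifiers were left out.

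The main test was edgeR's quasi-likelihood test (edgeR 4.0.16, R 4.3.3) after TMM scaling and filterByExpr (minimum count 10, minimum total 15). No covariate was fitted, and p-values were adjusted with the Benjamini-Hochberg method over the 19778 genes left, at a threshold of 0.05. A two-sided exact permutation test of 1 gene, 3 against 3, cannot give a p below 0.1. The scripts were tested on simulated data. Alternatives were DESeq2 1.42.0, RLE scaling, other filters and thresholds, GC offsets (lowess span 0.3), a block for the replicate number, coding genes only, and leaving out each library.

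The members and lists were chosen with earlier results of these data known. The text names all 10 members, *IGF2BP3*, and per role up to 3 called genes with the largest absolute log2 fold change. Of the 39 other genes, 2 count in the totals but are not reported here. Further genes were named after their values were seen. Positions, overlaps and transcripts come from GENCODE v44, promoters from RefSeq on GRCh38.p14, and the S-phase list from Seurat 5.3.0. The study's protein and binding assays were not used here.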

Additional observations from a re-analysis of the deposited data

How the results depend on the processing

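Each of the 10 enzymes was refitted under 14 alternatives, and 123 of the 140 values kept their direction and their side of the threshold. *UNG* and *PARP1* were called lower in all of them, with log2 fold changes without 1 library from -0.51 to -0.47 and from -0.32 to -0.30. The number of enzymes called lower was 2 to 4 without 1 library, 2 at an adjusted p under 0.01 and 4 at one under 0.1, and none was called higher. The call of *APEX1* was lost with no low-count filter (log2 fold change -0.15, edgeR's adjusted p = 0.0526) and in 4 fits without 1 library, with log2 fold changes from -0.18 to -0.11 over all 6. *XRCC1* passed the threshold with DESeq2 (log2 fold change -0.15), with at least 10 counts in every library (-0.15), with the replicate block (-0.14), with GC offsets (-0.17), with both together (-0.17) and without control replicate 1, with log2 fold changes without 1 library from -0.19 to -0.12. Direction turned for *MUTYH* without control replicate 2, for *NEIL3* without IGF2BP3 KD replicate 1, and for *NEIL1* without control replicate 2 or 3 or IGF2BP3 KD replicate 1 or 2. Their log2 fold changes without 1 library ranged from -0.0486 to 0.15, from -0.16 to 0.0102 and from -0.16 to 0.0305, in that order of genes. Among the 39 other genes, those called lower numbered 12 to 17 without 1 library, and those called higher 0 to 1, 2 with GC offsets (*HMGB1* added) and 0 at an adjusted p under 0.01. At that threshold 1314 of all tested genes were lower and 1098 higher. Without 1 library these counts were 1641 to 1970 and 1414 to 1741. The cause was not tested.

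Same-numbered libraries did not deviate together, with correlations over 14289 genes of -0.029, -0.104 and -0.082. These values show no pairing by number, but cannot tell whether same-numbered libraries were prepared together. With the replicate block, 4 enzymes were called lower, *XRCC1* among them (edgeR's adjusted p = 0.0416), and 2026 of all tested genes were lower and 1875 higher.

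At these depths *NEIL1*, with 168 to 252 counts per library, had an interval that contains a fall as large as that of *APEX1*. So did *NEIL3*, *MUTYH* and *NTHL1*, with their wide spread. The intervals of *OGG1* and *NEIL2* did not, but they contain a rise of that size. Counts per gene separate neither transcripts of one gene nor RNA from protein, and the groups come from 1 cell line.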
